A study of Mus musculus with 12 samples.

Results

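Imprinted growth genes are a set of 9 genes, Igf2, H19, Igf2r, Dlk1, Cdkn1c, Peg3, Mest, Grb10 and Plagl1, found by their Ensembl IDs among the 22400 rows of a gene-level expression table. All 9 were present. The list was set by gene ID and not by a cutoff on measured values, but with earlier results of these data known. The table comes from mouse embryos at E7.5 that carry a Foxf1::venus knock-in on a C57BL/6 background, in which the fluorescent protein VENUS reports the forkhead gene Foxf1. Cells were stained for FLK1, the vascular endothelial growth factor receptor of blood and vessel precursors, and sorted into FLK1+ FOXF1-, FLK1+ FOXF1+ (called double-positive here) and FLK1- FOXF1+ populations. For each population, 2 sorts of 50 cells gave 1 array each, and all 3 carry the knock-in, so no wild-type cells were compared. The allele state of the knock-in and the number of embryos in a sort are not given in the sources used here.

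In an imprinted gene, DNA methylation set in the egg or sperm leaves mainly the copy from 1 parent active. Many imprinted genes act on the growth of the embryo and placenta: copies active from the father more often promote growth, and copies active from the mother more often restrain it. Among the members, Igf2, Dlk1, Peg3, Mest and Plagl1 are usually active from the paternal copy and H19, Igf2r, Cdkn1c and Grb10 from the maternal copy. The arrays read the RNA of both copies together, so nothing here bears on which copy was active.

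The sequences below are the start regions of Dlk1 and Mest, shown because Dlk1 and Mest were the growth-promoting members whose population means differed most. Each is a RefSeq window of 300 bases on GRCm38.p6, from 250 bases before the transcript start to 50 after it, printed 5′ to 3′ with CpG dinucleotides, where DNA methylation is placed, in capitals. Dlk1 lies on the plus strand at chr12:109452573-109452872, and Mest on the plus strand at chr6:30737800-30738099.
Dlk1: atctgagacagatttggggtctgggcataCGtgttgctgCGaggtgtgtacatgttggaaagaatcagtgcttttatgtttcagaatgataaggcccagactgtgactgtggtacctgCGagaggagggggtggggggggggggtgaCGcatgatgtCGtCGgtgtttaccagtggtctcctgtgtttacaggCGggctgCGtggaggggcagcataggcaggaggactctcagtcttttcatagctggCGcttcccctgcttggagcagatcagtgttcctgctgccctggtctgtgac
Mest: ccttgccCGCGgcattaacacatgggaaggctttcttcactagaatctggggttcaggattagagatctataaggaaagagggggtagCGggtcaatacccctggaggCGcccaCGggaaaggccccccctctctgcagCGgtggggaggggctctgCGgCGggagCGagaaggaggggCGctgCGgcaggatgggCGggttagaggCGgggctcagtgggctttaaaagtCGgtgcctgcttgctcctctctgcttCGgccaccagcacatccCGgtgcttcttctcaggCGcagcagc

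The table held 3 windows for Mest, and the one printed was chosen among them for its CpG number after that number was seen. It held 17 CpG dinucleotides, as did a window that overlaps it almost wholly, while the third Mest window, at chr6:30733256-30733555, held 8. The Dlk1 window held 9, and the median over the 32851 windows of the table was 7, so the order of Mest and Dlk1 depends on the Mest window taken. In mice a Mest promoter is itself methylated on the maternal copy, whereas imprinting of Dlk1 is set by a control region that lies apart from its promoter. In all there were 13 windows for 7 of the members. Their CpG number ran from 2, in 1 of the 4 Igf2 windows, to 45 in 1 of the 2 Grb10 windows. Methylation was not measured in these samples, so the windows are a description of the loci only.

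Expression is given as a signal on the log2 scale, on which a difference of 1 is a change of 2-fold. The 6 arrays had medians of 6.00 to 6.07, and over all rows the median SD of a population's 2 sorts was 0.182 to 0.189. The files do not pair row IDs with symbols, so markers of the sorted cell types, the sorting genes and other genes of the pathway were not checked. One row bears on a label: ENSMUSG00000042812 had a mean signal of 4.57 in FLK1+ FOXF1-, 4.58 in double-positive and 8.21 in FLK1- FOXF1+ cells. If that row is Foxf1, which is not settled here, its RNA goes against the double-positive label. That label was set by VENUS fluorescence and not by RNA, so the measures are unlike. Results for double-positive cells are those of the cells so labelled. The study's design describes the 2 sorts of a population as biological replicates. Nothing in the labels says whether these sorts used separate embryos, so the tests measure the spread between these arrays, which may be partly technical.

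None of the 9 members passed an adjusted p under 0.05 in any of the 3 comparisons. Dlk1, Cdkn1c and Mest came closest, with the lowest mean signal of each in FLK1+ FOXF1- cells and the highest in FLK1- FOXF1+ cells. The other 6 members differed between population means by at most 0.51 log2 units. The highest and lowest population means were 1.51 log2 units apart for Dlk1, and 98.4% of all rows had a smaller gap. For Cdkn1c the gap was 1.02 (95.5% of rows smaller) and for Mest it was 0.80 (91.3%). At the other end, 5.02% of rows had a smaller gap than Grb10 and 14.4% a smaller one than Peg3. The gaps between means thus ran from among the narrower to among the wider of the table. A narrow gap does not show level signals: the FLK1- FOXF1+ sorts of Grb10 lay at 7.03 and 5.07.

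**Figure D1:**
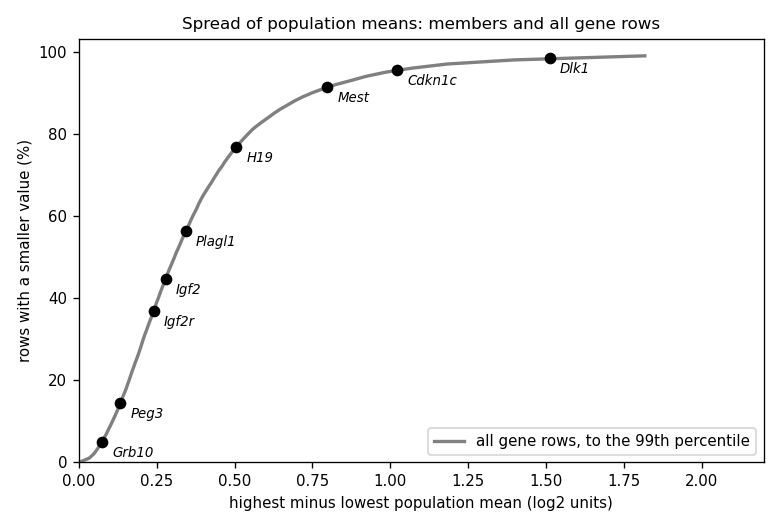
Horizontal axis: highest minus lowest of the 3 population means, in log2 units; vertical axis: percent of the 22400 gene rows with a smaller value. The grey line is all rows up to the 99th percentile, and the 9 points on it are the members, from Grb10 at 0.074 to Dlk1 at 1.51.

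Dlk1 (ENSMUSG00000040856) encodes a transmembrane protein with EGF-like repeats, related to the Notch ligands, and is used as a marker of immature and growing cells. Its log2 signals in sorts 1 and 2 were 6.09 and 5.60 in FLK1+ FOXF1- cells, 6.19 and 6.48 in double-positive cells, and 7.49 and 7.23 in FLK1- FOXF1+ cells. No array of 1 population overlapped another: the FLK1- FOXF1+ arrays were highest and the FLK1+ FOXF1- arrays lowest. The FLK1- FOXF1+ mean exceeded the FLK1+ FOXF1- mean by 1.51 ± 0.25 log2 units (SE), a fold of 2.85 (unadjusted 95% interval 1.89 to 4.31), with a limma adjusted p of 0.0713. The double-positive mean lay below the FLK1- FOXF1+ mean, with a log2 difference of -1.03 ± 0.25 (SE, limma adjusted p = 0.369). It lay above the FLK1+ FOXF1- mean by 0.49 ± 0.25 (limma adjusted p = 0.9999), so these neighbours in the order differed by less than 2 standard errors. Without sort 2 of the FLK1+ FOXF1- cells that difference was 0.24, and without their sort 1 it was 0.73. These comparisons share arrays and are not independent of each other.

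Mest (ENSMUSG00000051855), named for its expression in mesoderm, encodes a protein of the alpha/beta-hydrolase fold, and mice lacking the paternal copy grow less. In sorts 1 and 2 the log2 signals were 9.71 and 9.04 in FLK1+ FOXF1- cells, 10.11 and 10.10 in double-positive cells, and 10.36 and 9.98 in FLK1- FOXF1+ cells. Both FLK1+ FOXF1- arrays were below the other 4 arrays, while the FOXF1-positive populations overlapped. Compared with FLK1+ FOXF1- cells, the mean was higher by 0.80 ± 0.28 log2 units (SE) in FLK1- FOXF1+ cells (limma adjusted p = 0.535). In double-positive cells it was higher than in FLK1+ FOXF1- cells by 0.73 ± 0.28 (limma adjusted p = 0.9999). The double-positive and FLK1- FOXF1+ means were -0.065 log2 units apart, with an unadjusted 95% interval from -0.72 to 0.59. The FLK1+ FOXF1- arrays themselves differed by 0.67, and without sort 1 or sort 2 of that population the difference from FLK1- FOXF1+ cells was 1.13 or 0.46, and that from double-positive cells 1.07 or 0.40. The sign between the FOXF1-positive populations turned without FLK1- FOXF1+ sort 1, to 0.12.

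Igf2 (ENSMUSG00000048583) encodes insulin-like growth factor 2, a secreted growth factor of the embryo that signals through the IGF1 and insulin receptors. Its log2 signals were 6.82 and 6.86 in FLK1+ FOXF1- cells, 7.10 and 6.64 in double-positive cells, and 7.29 and 6.93 in FLK1- FOXF1+ cells. The FLK1- FOXF1+ arrays lay just above the FLK1+ FOXF1- arrays, and the double-positive arrays spanned the FLK1+ FOXF1- values. The difference between FLK1- FOXF1+ and FLK1+ FOXF1- cells was 0.28 ± 0.25 log2 units (SE, limma adjusted p = 0.929), with an unadjusted 95% interval from -0.31 to 0.86. It was 0.098 without FLK1- FOXF1+ sort 1 and 0.46 without sort 2 of those cells. Peg3 (ENSMUSG00000002265), a zinc finger gene whose loss reduces growth in mice, had nearly level means. The arrays read 6.20 and 6.24 log2 units in FLK1+ FOXF1- cells, 6.35 and 5.85 in double-positive cells, and 6.19 and 6.26 in FLK1- FOXF1+ cells. The double-positive sorts lay above and below the other 4 arrays.

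**Figure D2:**
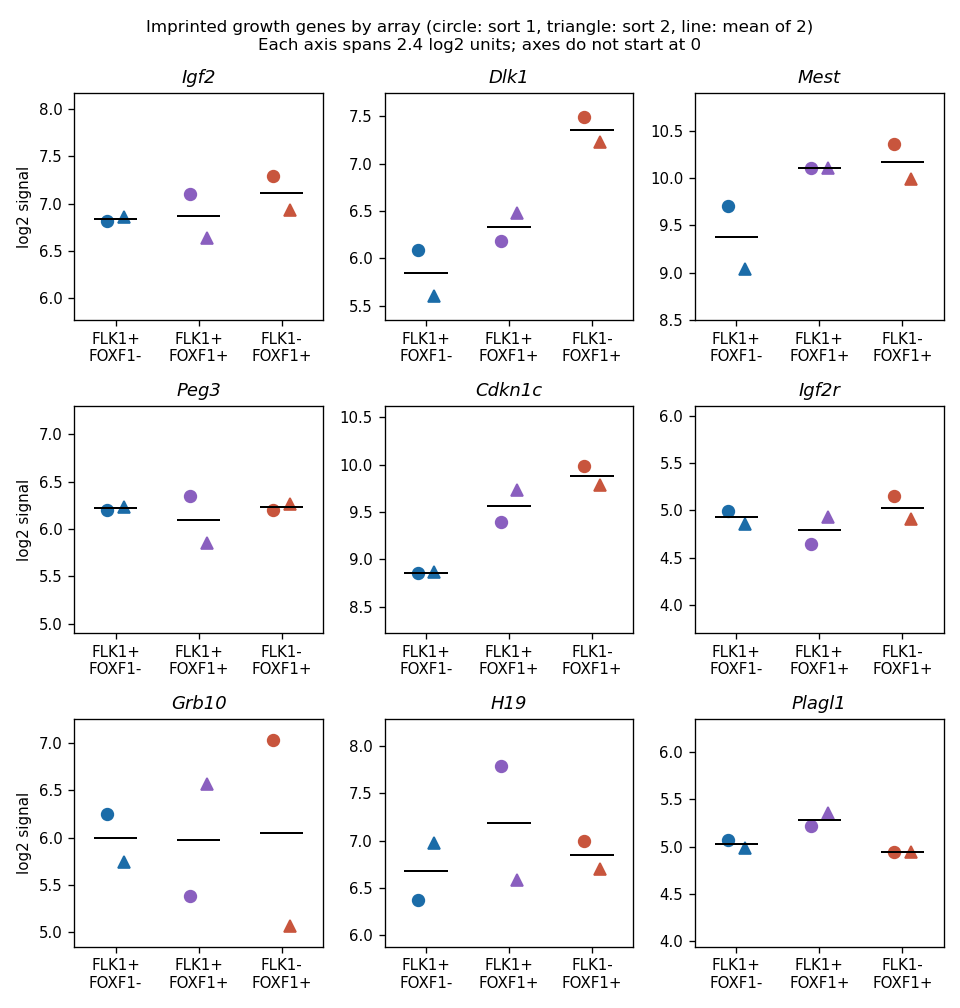
Log2 signal of each member on the 6 arrays, by population on the horizontal axis, with circles for sort 1, triangles for sort 2 and a line at the mean of 2; the vertical axes have the same span and do not start at 0. Dlk1, Cdkn1c and, in another order, Plagl1 have separate arrays in each population, while the 2 sorts of Grb10 in FLK1- FOXF1+ cells lie at 7.03 and 5.07.

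Among the growth-limiting members, Cdkn1c stood apart. This gene (ENSMUSG00000037664) encodes p57, an inhibitor of cyclin-dependent kinases that holds cells out of division. Log2 signals of Cdkn1c were 8.85 and 8.86 in FLK1+ FOXF1- cells, 9.39 and 9.73 in double-positive cells, and 9.98 and 9.78 in FLK1- FOXF1+ cells. The populations did not overlap and stood in the same order as for Dlk1, although within sort 2 the double-positive array differed from the FLK1- FOXF1+ array by only -0.048. The mean in FLK1- FOXF1+ cells exceeded that in FLK1+ FOXF1- cells by 1.02 ± 0.22 log2 units (SE), a fold of 2.03 (unadjusted 95% interval 1.42 to 2.91), with a limma adjusted p of 0.164. Double-positive cells exceeded FLK1+ FOXF1- cells by 0.70 ± 0.22 (SE, limma adjusted p = 0.905). Between the FOXF1-positive populations the log2 difference was -0.32 ± 0.22 (limma adjusted p = 0.9993), and it was -0.15 without double-positive sort 1 and -0.49 without double-positive sort 2.

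Igf2r (ENSMUSG00000023830) encodes the receptor that binds IGF2 and carries it to the lysosome. Log2 signals of Igf2r were 4.99 and 4.86 in FLK1+ FOXF1- cells, 4.65 and 4.93 in double-positive cells, and 5.15 and 4.90 in FLK1- FOXF1+ cells. The 3 populations overlapped, and all 6 values lay below their array's median. No detection calls were used, so whether such a signal is above background is not known. Grb10 (ENSMUSG00000020176), an adaptor that binds the insulin and IGF1 receptors and dampens their signal, had nearly equal means of 6.00, 5.98 and 6.05 in the same order of populations. The sorts behind these means were far apart, with log2 signals of 6.25 and 5.74 in FLK1+ FOXF1- cells, 5.39 and 6.56 in double-positive cells, and 7.03 and 5.07 in FLK1- FOXF1+ cells. Its SD in FLK1- FOXF1+ cells was 1.39, where the median over all rows was 0.186. The unadjusted 95% interval of the Grb10 difference between FLK1- FOXF1+ and FLK1+ FOXF1- cells therefore ran from -1.46 to 1.57 log2 units, and level means do not show a level gene.

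H19 (ENSMUSG00000000031) is a non-coding RNA that neighbours Igf2 and shares enhancers and an imprinting control region with it, which activates H19 from the maternal and Igf2 from the paternal copy. Its log2 signals were 6.38 and 6.98 in FLK1+ FOXF1- cells, 7.79 and 6.58 in double-positive cells, and 6.99 and 6.70 in FLK1- FOXF1+ cells. Sort 1 of the double-positive cells was the highest array and sort 2 was among the low ones, so the populations overlapped. The double-positive mean differed from the FLK1+ FOXF1- mean by 0.51 ± 0.41 log2 units (SE, limma adjusted p = 0.9999). By sort number that difference was 1.41 in sort 1 and -0.40 in sort 2. The sorts were not taken as paired between populations, so this split depends on how the arrays are matched. The double-positive arrays (7.79 and 6.58) lay further apart than the FLK1+ FOXF1- arrays (6.38 and 6.98). For Igf2 the differences by sort number were 0.29 and -0.21, with the same limit.

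Plagl1 (ENSMUSG00000019817), also called Zac1, encodes a zinc finger factor that can halt the cell cycle and, in mice, regulates other imprinted genes. Its log2 signals were 5.06 and 4.99 in FLK1+ FOXF1- cells, 5.22 and 5.35 in double-positive cells, and 4.94 and 4.94 in FLK1- FOXF1+ cells. The double-positive arrays were highest and the FLK1- FOXF1+ arrays lowest, with no overlap, an order unlike that of Dlk1, Cdkn1c and Mest. The gap was small: double-positive cells exceeded FLK1- FOXF1+ cells by 0.34 ± 0.20 log2 units (SE, limma adjusted p = 0.974). As for Igf2r, all 6 Plagl1 signals lay below their array's median.

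The comparison of FLK1- FOXF1+ with FLK1+ FOXF1- cells sets cells with 1 of the markers against cells with the other. By limma 0 of 9 members passed, where 0.545% of all rows did, and 3 members (Dlk1, Cdkn1c and Mest) had an unadjusted p under 0.05, where 7.28% of all rows did. The mean was higher in FLK1- FOXF1+ cells for 8 of 9 members, Plagl1 being the exception. The exact share of all rows with a higher mean there was not counted, but their median difference of 0.0017 log2 units means a nearly even split. Among the 8, the differences of H19, Igf2r, Grb10 and Peg3 were only 0.17, 0.10, 0.055 and 0.009. Each of these changed sign in a fit without 1 of the arrays. Arrays did not overlap and were higher in FLK1- FOXF1+ cells for 4 members (Igf2, Dlk1, Cdkn1c and Mest), where 17.9% of all rows did so. Plagl1 had lower arrays without overlap there, as did 17.3% of all rows. Over the 9 members the median difference was 0.17 log2 units beside 0.0017 over all rows, and the median absolute difference was 0.17 beside 0.19. The paternally active Dlk1 and Mest and the maternally active Cdkn1c had the 3 highest differences, so these were not from 1 side of the parental split.

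The comparison of double-positive with FLK1+ FOXF1- cells sets FLK1-positive cells with the reporter against those without it. By limma 0 of 9 members passed, as did 0% of all rows, and 2 members (Cdkn1c and Mest) had an unadjusted p under 0.05, where 4.67% of all rows did. The mean was higher in double-positive cells for 6 members and lower for 3, while all rows were split nearly evenly by their median. In 4 members (Dlk1, Cdkn1c, Mest and Plagl1) the arrays did not overlap and were higher in double-positive cells, where 15.7% of all rows did so. No member had lower arrays without overlap, where 16.3% of all rows did. The median difference was 0.26 log2 units beside -0.0022 over all rows, and the median absolute difference was 0.26 beside 0.18.

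The comparison of double-positive with FLK1- FOXF1+ cells asks what goes with FLK1 among reporter-positive cells. By limma 0 of 9 members passed, where 0.286% of all rows did, and 1 member (Dlk1) had an unadjusted p under 0.05, where 5.86% of all rows did. The mean was lower in double-positive cells for 7 members and higher for H19 and Plagl1, while all rows were split nearly evenly by their median. Dlk1 and Cdkn1c had lower arrays without overlap, where 16.9% of all rows did so, and Plagl1 had higher arrays without overlap, where 15.5% did. The median difference was -0.13 log2 units beside -0.0069 over all rows, and the median absolute difference was 0.24 beside 0.18.

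**Figure D3:**
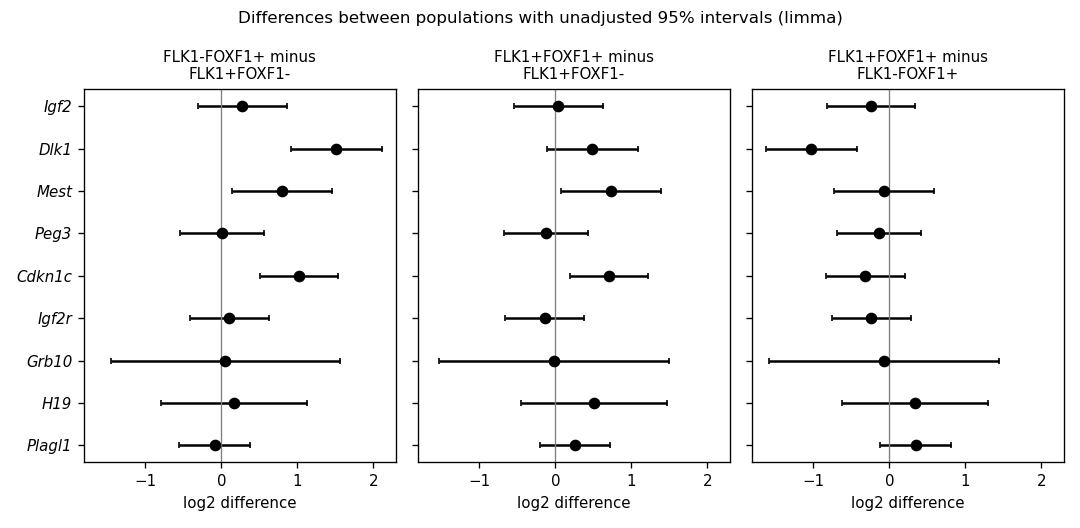
Horizontal axes: log2 difference between population means for each member in the 3 comparisons, with bars for the unadjusted 95% intervals from limma. Dlk1 lies at 1.51, 0.49 and -1.03 from left to right, and the intervals of Grb10 are the widest.

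Population means stood in the order FLK1+ FOXF1-, double-positive, FLK1- FOXF1+ from low to high for 4 members (Igf2, Dlk1, Cdkn1c and Mest), where 18.6% of all rows had this order. Igf2 and Mest held it by small steps. For Igf2, double-positive minus FLK1+ FOXF1- was 0.037 log2 units, and for Mest, double-positive minus FLK1- FOXF1+ was -0.065. Each of these signs turned in a fit without 1 of the arrays. The mean was highest in FLK1- FOXF1+ cells for 7 members, all but H19 and Plagl1, where 35.1% of all rows had this. Some of the 7 were near ties: over FLK1+ FOXF1- cells, Peg3 was higher by only 0.009 and Grb10 by 0.055 log2 units. Likeness of pattern was measured as the root mean square difference over the 6 arrays between rows centred on their own means. Around Dlk1, the member with the widest gap, the nearest member was Cdkn1c at 0.33 log2 units, with 0.406% of rows nearer, followed by Mest at 0.42 with 1.61% of rows nearer. H19 and Grb10 were far from it, with 84.3% and 82.7% of rows nearer. The nearest rows of the whole table were ENSMUSG00000019842 at 0.13 and ENSMUSG00000032251 at 0.15, whose names the files do not give. ENSMUSG00000019842 had log2 signals of 5.66 and 5.49 in FLK1+ FOXF1- cells, 5.93 and 5.93 in double-positive cells, and 7.17 and 6.93 in FLK1- FOXF1+ cells. These distances describe the pattern over these arrays only. Rows were centred but not scaled, and Dlk1 was taken for its wide gap. Nearness to it therefore partly restates the gaps and orders already given and is not a separate result.

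The exon-level table of the same 6 arrays was searched for probe sets whose deposited values coincide with the gene values to the last decimal. Such a match was found for 5 members, and it rests on the values alone, since no annotation pairs probe sets with genes here. Because probe sets were picked by their equality with the gene value, a shared direction is partly built in and is not separate support. The Mest value equalled the mean of the same 2 probe sets, 4351001 and 5556560, on 4 arrays. Both had a higher mean in FLK1- FOXF1+ than in FLK1+ FOXF1- cells, by 0.94 and 1.08 log2 units, and in double-positive than in FLK1+ FOXF1- cells, by 0.85 and 1.52. Probe set 5556560 varied more between sorts, with 9.62 and 7.26 in FLK1+ FOXF1- cells and 10.25 and 8.80 in FLK1- FOXF1+ cells.

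The H19 value equalled probe set 5579493 on 3 arrays and probe set 4693172 on 2 others, so its gene value coincided with different probe sets on different arrays. In probe set 4693172 the log2 signals were 6.38 and 8.27 in FLK1+ FOXF1- cells, 8.08 and 5.92 in double-positive cells, and 6.99 and 7.49 in FLK1- FOXF1+ cells. In probe set 5579493 they were 7.35 and 6.98, then 7.79 and 6.26, then 7.77 and 6.70. On double-positive sort 2 the gene value, 6.58, matched neither probe set and lay above both. The double-positive mean was below the FLK1+ FOXF1- mean in both, with differences of -0.33 and -0.14, whereas the gene value gave 0.51. The direction for H19 therefore differed between the gene value and these probe sets.

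Plagl1 equalled the mean of probe sets 4414838 and 4557135 on 4 arrays, and the double-positive mean exceeded the FLK1+ FOXF1- mean by 0.77 in the former and 0.091 in the latter. The Igf2 value equalled the mean of probe sets 4648820 and 5576736 on 3 arrays, and both were higher in FLK1- FOXF1+ than in FLK1+ FOXF1- cells, by 0.62 and 0.26. The Peg3 value equalled probe set 4421676 on 3 arrays and 4996219 on 2 others, whose differences in that comparison were 0.097 and -0.11. No match was found for Dlk1, Cdkn1c, Igf2r and Grb10, so their probe sets were not compared.

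**Figure D4:**
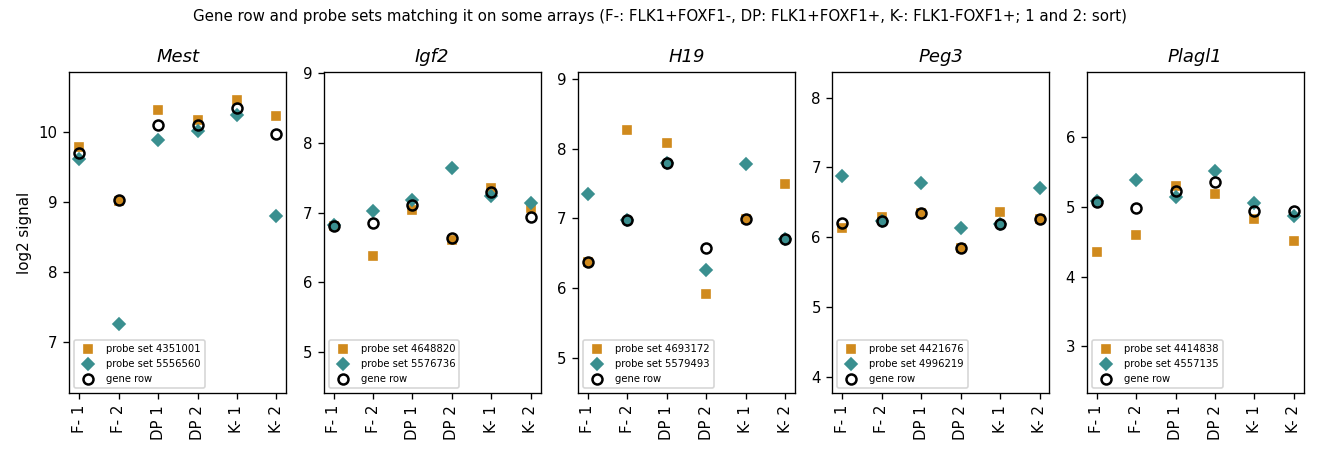
Log2 signal on the 6 arrays, named by population and sort on the horizontal axis, for the gene value (open circles) and the matching probe sets (squares and diamonds) of 5 members. In Mest the probe sets part most in the second sorts of FLK1+ FOXF1- and FLK1- FOXF1+ cells, and in H19 the open circles move from 1 probe set to the other.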

How the data were processed

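The authors deposited log2 signals of Affymetrix mouse exon arrays for 6 arrays, as a gene-level table of 22400 rows and an exon-level table of 128950 rows. Per the submitters' processing notes they used RMA, a robust multi-array average, and Affymetrix Power Tools, without versions. How genes were built from probe sets was not given in the sources used here. That the scale is log2 was read from the values. RMA tends to compress large differences. The 12 samples are the same 6 arrays at 2 levels and were counted once. The 9 members carry the names given with the list of IDs, and 0 of the 22400 row IDs matched the 49997 reference genes, so 3 lists of related genes and 8 marker lists could not be tested.

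Gene rows were fitted with limma 3.58.1 in R 4.3.3 over all 6 arrays with population as the factor (3 residual and 4.27 prior degrees of freedom), with two-sided tests and p-values adjusted by Benjamini-Hochberg over the 22400 rows of each comparison. The fit was tested on simulated data. That test set a bar for recovery only at a shift larger than the gaps of these members. Smaller shifts were also simulated, but no bar was set for them and their recovery is not given here. Passing the bar therefore does not show that differences of the members' size would be found. All members are named; the rule for rows most like a member took the 2 nearest to the member with the widest gap. A probe set match needed equality on at least 2 arrays for 1 probe set, or on 3 for the mean of a pair. Members and lists were chosen with earlier results of these data known, and the probe set match was chosen after seeing the values. Precision is limited by the number of arrays: the standard error of a difference had a median of 0.25 log2 units.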

Additional observations from a re-analysis of the deposited data

How the results depend on the processing

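The count of members past the threshold was 0 in each comparison under all 12 alternatives run: median centring, a repeated quantile normalization, the brighter rows alone (without the dimmer 50%, which kept 6 members), a robust prior with an intensity trend, fits of 2 populations at a time, a block for sort number, and fits without each array in turn. The smallest limma adjusted p was that of Dlk1 in FLK1- FOXF1+ against FLK1+ FOXF1- cells after median centring, 0.0567. With sort number as a replicate block the count stayed at 0 in each comparison, with smallest limma adjusted p of 0.764, 0.368 and 0.0959 for double-positive against FLK1+ FOXF1-, double-positive against FLK1- FOXF1+ and FLK1- FOXF1+ against FLK1+ FOXF1- cells. Across genes, sort 1 minus sort 2 correlated between pairs of populations at 0.137, 0.0975 and 0.0591, not all over 0.1, so the sorts were not taken as paired. Leaving out 1 array at a time turned the sign of 13 of the 27 member differences, none of them past the threshold and the widest that of H19, at 0.51 between double-positive and FLK1+ FOXF1- cells. For double-positive against FLK1+ FOXF1- cells the log2 difference ran from -0.19 to 0.27 for Igf2, -0.097 to 1.11 for H19, -0.28 to 0.0047 for Igf2r, -0.37 to 0.13 for Peg3 and -0.61 to 0.57 for Grb10, which was 0.011 after quantile normalization. For double-positive against FLK1- FOXF1+ cells it ran from -0.27 to 0.94 for H19, -0.38 to 0.12 for Peg3, -0.25 to 0.12 for Mest and -1.05 to 0.91 for Grb10. For FLK1- FOXF1+ against FLK1+ FOXF1- cells it ran from -0.13 to 0.47 for H19, -0.024 to 0.23 for Igf2r, -0.025 to 0.043 for Peg3 and -0.93 to 1.03 for Grb10. Dlk1, Cdkn1c and Plagl1 kept their signs in all 3 comparisons under the alternatives run for them. The exon-level alternative was not run, because probe sets carry no gene names here. The number of arrays limits these tests.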
